A study of Mus musculus with 272 samples.

Results

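The data are the sucrose gradients of mouse 4-cell embryos: 30 libraries, 10 consecutive fractions from each of 3 gradients lettered A, B and C, out of 272 libraries in a series that covers 8 stages from the oocyte to the blastocyst. The 30 libraries were chosen by their stage label alone. Each gradient was loaded with a lysate of about 100 untreated 4-cell embryos, broken with beads in detergent with cycloheximide, which holds ribosomes on their transcripts. The neighbouring stages used for comparison, 2-cell and 8-cell embryos, were prepared in the same way with 3 gradients each, and 4 pools of 20 4-cell embryos gave whole transcriptomes. The labels give no strain, genotype or mating, so none is stated here. Fractions carry only a number in the labels. Here the light side is fractions 1 to 5 and the heavy side is fractions 6 to 10, by the convention that numbering starts at the top of the tube.

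A ribosome that reads a transcript adds mass to it, so a transcript with many ribosomes sediments towards the bottom of a sucrose gradient and one with few or none stays near the top. A transcript can also be held near the top by proteins that block its translation, and a short reading frame has room for few ribosomes. The 4-cell mouse embryo has replaced most of the maternal transcripts of the oocyte with products of its own genome, and it still carries oocyte-made proteins, mitochondria and ribosomes. All levels below are CPM, a gene's reads scaled to a common library total, and a side's level is the mean CPM of its 5 fractions, so that each fraction has equal weight whatever RNA it held. Differences are heavy minus light within a gradient, on the scale log2(CPM + 1).

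Depth differed widely. The 30 fractions held 0.141 M to 21.6 M reads (median 8.5 M), with the 3 libraries of fraction 1 lowest at 0.141 M to 0.347 M, and 2584 to 7113 genes reached 1 CPM in a fraction against 11143 to 11278 in the transcriptome pools. Across 12290 genes with a mean above 10 CPM in either kind of library at some stage, the mean fraction profile of each 4-cell gradient ranked most like the 4-cell transcriptomes among the 8 stages, with Spearman rho 0.60, 0.64 and 0.68 in A, B and C, and next like the 8-cell ones at 0.60, 0.64 and 0.67. The 2-cell-wave markers Zscan4d, Zscan4c, Tcstv3 and Usp17la were at 0 in 23, 27, 15 and 26 of the 30 fractions. Their highest levels in a fraction were 18.2, 6.72, 119 and 552 CPM. The blastocyst markers Krt8, Krt18, Cdx2 and Lgals1 had medians of 0.744, 0.723, 0.351 and 0.736 CPM in fractions. Their highest levels were 79.1, 44.8, 5.61 and 108 CPM. Other markers differed between the kinds of library: Pou5f1, a pluripotency factor, had a median of 159 CPM in fractions and 16.6 in transcriptomes, and Bhmt, a methyltransferase of the betaine pathway, 1.68 against 845 CPM. Summed over the 7 measured markers of cumulus and granulosa cells, 22 of 30 fractions were at 0 and the highest held 274 CPM. Summed over 5 sperm markers, 24 were at 0 and the highest held 41.6 CPM. In pooled lysates of this kind, fewer cells of a type and less RNA per cell cannot be told apart.

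The 3 gradients agreed poorly, and 1 library stood apart. Across the 1764 genes with a mean of at least 100 CPM over the 6 side means, the heavy minus light differences correlated at Pearson r 0.20 between A and B, 0.16 between A and C and 0.45 between B and C. These are correlations across genes, which are not replicates. Fraction 1 ranked genes alike in the 3 gradients, with rho 0.61 to 0.66, whereas fraction 6 of gradient A reached 0.22 and 0.29 with fraction 6 of the others. In that library, Rps4x alone stood at 105703 CPM against 591 and 309 in fraction 6 of B and C, and its 10 highest symbols other than Rn18s held 39.9% of the total against 8.32% and 6.12%. A 4-cell gene often rested on 1 fraction: its peak fraction held a median 44.7%, 29.7% and 24.9% of its summed CPM in A, B and C. The same share was 27.7% to 29.5% in the 2-cell gradients, 21.1% to 22.3% in the 8-cell ones and 18.4% to 19.5% in the blastocyst ones. Only gradient A thus lay far above the 2-cell range. The number of calls, the main lists and the genes named below whose heavy level in A moves by over 1.5 times are also given without fraction 6 of gradient A.

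**Figure D1:**
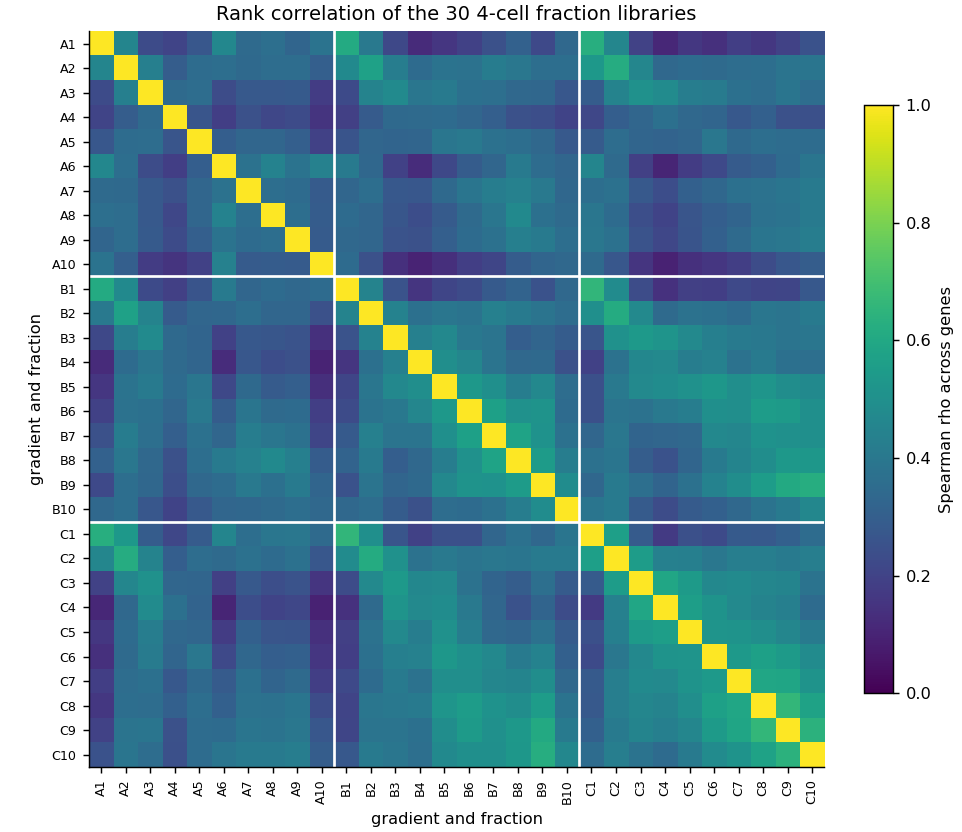
Spearman rho across genes between each pair of the 30 4-cell fraction libraries, labelled by gradient letter and fraction number on both axes, with white lines between gradients. The fractions 1 of the 3 gradients resemble each other at 0.61 to 0.66, and fraction 6 of gradient A resembles fraction 6 of B and C at only 0.22 and 0.29.

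The first question was which transcripts lay on different sides of the 4-cell gradient. Of 8575 genes tested, 2 were called (0.0233%), at a Benjamini-Hochberg adjusted p under 0.05 by limma's moderated test with a difference of at least 1: Rpl41 was heavier (0.0117%) and Fth1 was lighter (0.0117%). At an unadjusted p under 0.05 there were 306 heavier genes (3.57%) and 994 lighter ones (11.6%). The same test within each other stage called 584 genes in GV oocytes (5.02%), 2460 in MII oocytes (21.7%), 2098 in zygotes (18.5%), 119 in 2-cell embryos (1.2%), 257 in 8-cell embryos (2.6%), 1784 in morulae (16.3%) and 2614 in blastocysts (23.5%). With 3 pairs an exact two-sided sign-flip test cannot go below a p of 0.25 for a single gene, so the calls rest on the spread that limma shares across genes. The labels do not say whether the 3 gradients came from separate collections of embryos, and the p-values measure the spread between these gradients only.

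Because so few genes passed, the sign of the difference in the 3 gradients is used below as a description. Among the 8575 genes, 1070 were heavy in 3 of 3 gradients (12.5%) and 2357 were light in 3 of 3 (27.5%), with median differences of -1.14, -0.34 and -0.19 in A, B and C. Among the 1764 genes of at least 100 CPM the balance turned: 491 were heavy in 3 of 3 (27.8%) and 354 light (20.1%), with medians of -0.10, 0.23 and 0.28. The sides did not overlap for 509 heavy (5.94%) and 1433 light (16.7%) genes of all tested, and for 290 (16.4%) and 196 (11.1%) of those of at least 100 CPM. In the latter set 215 heavy (12.2%) and 184 light (10.4%) genes had an unadjusted p under 0.05. Counts of the lists below are therefore to be read beside the shares of both sets.

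Ferritin transcripts lay on the light side. Ferritin is the iron store of the cell, a shell of heavy and light chains, and its synthesis is a textbook case of translational control: when iron is scarce, iron regulatory proteins bind a hairpin in the 5′ untranslated region and hold the transcript off the ribosome. Fth1, the heavy chain, had 8822, 6419 and 7773 CPM on the light side of gradients A, B and C and 1465, 1149 and 1969 on the heavy side. Every light value exceeded every heavy one by more than 3-fold. The difference was -2.35 (SE 0.17, n = 3 gradients), a level 5.10 times lower on the heavy side, with a limma adjusted p of 0.0175. Fth1 peaked in fraction 2 of gradient A at 16534 CPM and in fraction 3 of B and C at 11146 and 11520, and by fraction 10 it was at 567, 512 and 954.

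The light chain followed the same course with less agreement between gradients. Ftl1 had 7587, 7575 and 5178 CPM on the light side and 4714, 2283 and 1512 on the heavy side. The sides did not overlap, but the limma adjusted p was 0.282 and the gene was not called. Its level in fraction 6 of gradient A, 9691 CPM, was over double that in fraction 6 of B and C, at 4472 and 2126. Both transcripts peaked in fraction 2 or 3 in all 3 gradients. Ferritin genes have many processed copies in the genome, which the counting could split, so their levels are uncertain to that extent.

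The hairpin letters of both ferritin transcripts are shown because Fth1 is the lighter of the called genes. Each window of 30 bases comes from the annotated 5′ untranslated region of the GENCODE vM21 transcript on GRCm38, with the bulged C and the loop CAGTGN in capitals, at chr19:9982729-9982758 on the plus strand for Fth1, chr7:45459781-45459810 on the minus strand for Ftl1 and chr1:45925467-45925496 on the minus strand for Slc40a1, the iron exporter.
Fth1: ggtttcctgCttcaaCAGTGCttgaacgga
Ftl1: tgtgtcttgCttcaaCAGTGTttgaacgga
Slc40a1: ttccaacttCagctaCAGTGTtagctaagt

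The letters CNNNNNCAGTGN were searched on the transcript strand and occur in 1044 of 12933 annotated 5′ untranslated regions (8.07%). With the further demand that the 5 bases on each side of the loop pair, 7 remain (0.0541%), among them Ecd, Fth1, Ftl1, Mfsd14b, Nudt12 and Slc40a1. The motif was chosen after the ferritin values were seen, and a match is a description of letters, not of a bound site. The other matches described here did not share one position. Ecd, a cell cycle and splicing protein, had 163, 269 and 276 CPM on the light side and 65.1, 248 and 253 on the heavy side. Mfsd14b, a membrane transporter, was on the heavy side in A and B, at 331 and 87.4 CPM against 15.6 and 1.15, and not in C, at 125 against 148. Slc40a1 had 74.3 and 44.6 CPM on the light side of B and C and 0 in both on the heavy side, but it was at 0 on the light and 0.0508 on the heavy side in A and did not enter the test. Nudt12 was at 0 on 5 of the 6 sides and was not tested. Tfrc, the transferrin receptor, whose transcript carries its iron hairpins in the 3′ untranslated region, had 119, 181 and 98.5 CPM on the light side and 286, 166 and 123 on the heavy side, and the sides overlapped.

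**Figure D2:**
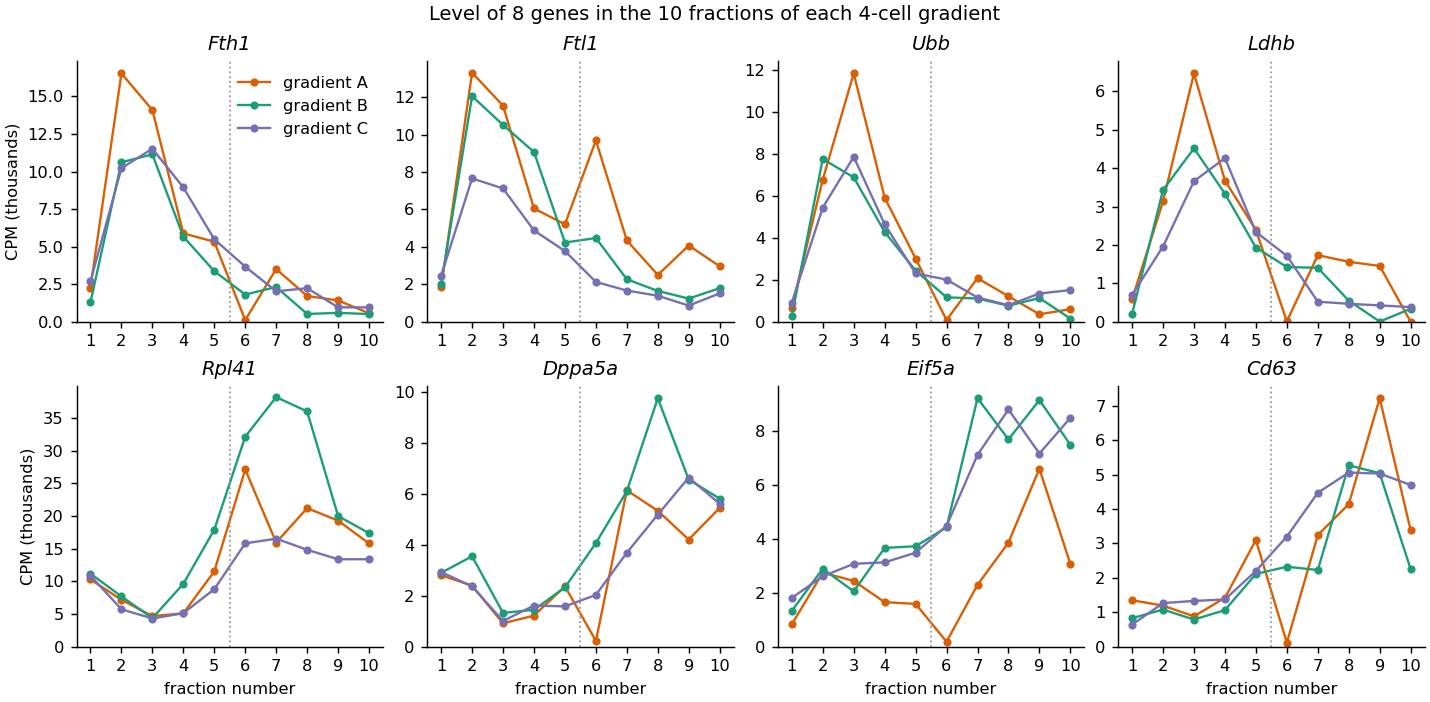
CPM divided by 1000 (vertical axis, from 0) against fraction number (horizontal axis) for 8 genes in the 3 4-cell gradients, with 1 coloured line per gradient and a dotted line between the light and heavy sides. Fth1, Ftl1, Ubb and Ldhb peak in fractions 2 to 4, while Rpl41, Dppa5a, Eif5a and Cd63 are highest in fractions 6 to 10. Fraction 6 of gradient A lies at 10.5 to 226 CPM for 6 of the 8 genes, Rpl41 and Ftl1 being the exceptions.

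The light group was completed by 10 further genes, chosen by rank of p among genes of at least 100 CPM with 3 equal signs. In all 12 members of the group the light values of the 3 gradients lay above all heavy values. Their choice by p makes this likely, and 11.1% of all genes of at least 100 CPM had such light sides. Ubb, a polyubiquitin gene, had 5650, 4333 and 4241 CPM on the light side and 868, 866 and 1364 on the heavy side (difference -2.22, SE 0.24, limma adjusted p = 0.125). A pseudogene, Ubb-ps, is also in the table, and the counting could split reads between them. Ldhb, the lactate dehydrogenase subunit that the oocyte stores in quantity, had 3251, 2684 and 2583 CPM against 952, 744 and 703. Its 3 differences, -1.77, -1.85 and -1.88, had the smallest spread among the genes in the light group, though limma, which shrinks such spreads towards the trend, gave an adjusted p of 0.125.

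The other members of the light group were lower or less even. Prdx2, a peroxide-removing enzyme, had 1670, 2432 and 1202 CPM on the light side against 368, 512 and 415. Zbed3, a member of the subcortical maternal complex of the egg, had 1386, 1182 and 800 against 442, 322 and 305. Dhx30, an RNA helicase, had 1253, 1258 and 1269 against 190, 307 and 229, and its light level rested on the shallow fraction 1, which held 57.6%, 60.7% and 53.7% of its summed CPM. Fraction 1 being the library with the fewest reads in each gradient, the weight that it adds to such genes was measured by leaving it out: Dhx30 then had a difference of -1.04, with a limma adjusted p of 0.494.

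Mitochondrially encoded COX1, described with its class below, also belonged to the light group. The remaining 4 light genes were Txndc16, Nek4, Diaph3 and Atg5. Txndc16, a thioredoxin-domain protein, reached 796, 558 and 356 CPM on the light side and 114, 27.0 and 9.90 on the heavy side. Nek4, a protein kinase, had 821, 596 and 497 against 150, 35.7 and 20.0. Diaph3, a formin that nucleates actin, had 631, 641 and 509 against 104, 55.0 and 89.7. Atg5, a component of the autophagy conjugation system, had 1584, 827 and 837 against 125, 134 and 231. None of these 4 was called, with limma adjusted p of 0.282 each. Txndc16 and Nek4 rested on fraction 1 as Dhx30 did: it held 71.9%, 82.6% and 76.6% of the summed CPM of Txndc16 and 63.1%, 73.9% and 71.5% of that of Nek4. Leaving it out gave differences of -1.84 and -1.96, against -4.05 and -3.68 with it. Without fraction 6 of gradient A, the heavy level of A was 74.1 CPM for Txndc16 and 70.6 for Nek4.

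The heavy group was led by Rpl41, a very short basic protein of the large ribosomal subunit. It had 19886, 28760 and 14798.5 CPM on the heavy side and 7766, 10163.5 and 6976 on the light side. The sides did not overlap, and the difference was 1.31 (SE 0.09, n = 3 gradients), a 2.49-fold higher level, with a limma adjusted p of 0.0175. Its profile had a trough in fraction 3 of every gradient, at 4696, 4369 and 4319 CPM, and a peak in fraction 6 or 7, at 27138, 38214.5 and 16542.5.

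Dppa5a, an RNA-binding protein of pluripotent cells, came next by p. It had 4268, 6455 and 4628 CPM on the heavy side and 1942, 2309 and 1901 on the light side (difference 1.3, SE 0.15, limma adjusted p = 0.125). Without fraction 6 of gradient A, where it stood at 226 CPM, its adjusted p was 0.0348. Eif5a, the hypusine-carrying factor that helps ribosomes past difficult peptide bonds, had 3206, 7602 and 7217 CPM against 1854, 2736 and 2825. Chchd2, a protein of the mitochondrial intermembrane space, had 1281, 2931 and 2761 against 519, 774 and 669.

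Cd63, Alppl2, Spns1, Pemt and Slc66a2 were also among the heavy genes. Cd63, a tetraspanin of late endosomes, had 3620, 3423 and 4492 CPM on the heavy side and 1590, 1175 and 1363 on the light side. Alppl2, an alkaline phosphatase anchored at the cell surface, had 10938, 6463 and 6293 against 3197, 3213 and 2945. In gradient A its level in fraction 6 was 28609 CPM, and without that library the heavy level of A was 6520 CPM and the mean difference 1.04 with an adjusted p of 0.0348. Spns1, a lysosomal lipid transporter, had 2469, 3214 and 2369 against 419, 1160 and 696. Pemt, which methylates phosphatidylethanolamine, had 3315, 3140 and 2217 against 1464, 619 and 445. Slc66a2, a multispanning membrane protein, had 865, 1837 and 2218 against 370, 533 and 554. All 5 had non-overlapping sides, which their choice by p makes likely, beside 16.4% of all genes of at least 100 CPM. None of the 5 was called among all genes tested.

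Leaving out fraction 6 of gradient A, an alternative added after that library was seen to stand apart, raised the number of called genes from 2 to 7. Rpl41 and Fth1 were among the 7, and Ubb, Cd63, Alppl2, Dppa5a and Eif5a joined them. All 7 belong to the 24 genes of the heavy and light groups. These were ranked by p in nearly the same libraries, so the overlap is no independent evidence. edgeR's quasi-likelihood test on the recovered reads, summed per side, called 5 genes: Rpl41, Dppa5a, Cd63 and Eif5a as heavier and Fth1 as lighter. Without gradient A no gene was called.

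**Figure D3:**
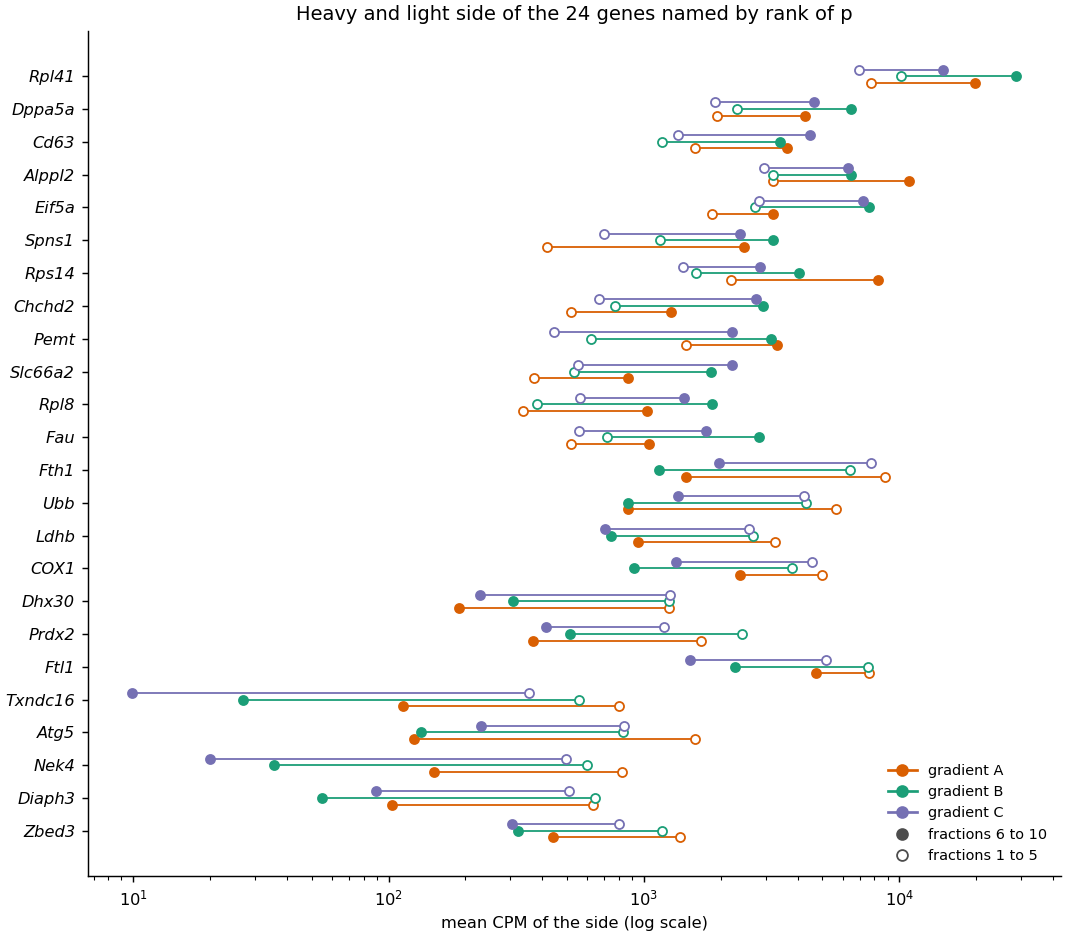
Mean CPM of fractions 6 to 10 (filled) and of fractions 1 to 5 (open) for the 12 heavy and 12 light genes with the smallest p, on a log axis, with 1 line per gradient. In each of the 24 genes the filled and open points of the 3 gradients do not overlap, which their choice by p makes likely.

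Transcripts of ribosomal proteins were the list with the most heavy members. Beyond Rpl41 and Fth1, no list member named below was called, and the values of each are a description. Cytosolic ribosomal protein genes are short, abundant and translated as a group under the control of growth signals. All 82 listed genes were tested, 50 were heavy in 3 of 3 gradients and 2 light, beside 12.5% and 27.5% of all genes tested. Their median difference was 0.40, 0.99 and 0.88 in A, B and C. Of the 70 with at least 100 CPM, 47 were heavy and 1 light, beside 27.8% and 20.1% of all genes at that level. At an unadjusted p under 0.05 there were 26 heavier and 1 lighter of the 82, beside 3.57% and 11.6% of all genes tested. Rpl41 was the 1 that passed adjustment. Without fraction 6 of gradient A, 57 were heavy in 3 of 3 and the median of A was 0.68.

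Single members differed from this course. The stalk protein gene Rplp0 had 3600, 7907 and 6936 CPM on the heavy side and 3888, 4942 and 4105 on the light side. Rps2, which had a mean of 1160 CPM, was light in all 3 gradients with differences of -0.94, -0.58 and -0.61. Rps9 and Rps3 were on the heavy side in all 3 gradients, with differences of 1.29, 2.02 and 2.32 for Rps9 and 2.62, 1.60 and 1.61 for Rps3. Rps14 had 8261, 4042 and 2838 CPM on the heavy side against 2194, 1605 and 1429. Fraction 6 of gradient A held 58.4% of its summed CPM there, and without it the heavy level of A was 2690 CPM and the difference 0.29 instead of 1.91. Rps4x likewise had 21582 CPM on the heavy side of A with that library and 552 without it. Rpl8 had 1029, 1849 and 1438 against 336, 383 and 562, and Fau, a fusion of a ubiquitin-like and a ribosomal protein, had 1050, 2833 and 1744 against 520, 718 and 557.

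Summed over the 82 genes, the class had a trough and then a climb. The lowest fraction was 4, 3 and 4 in A, B and C, at 26153, 32560 and 33889 CPM, and the highest was 6, 8 and 10, at 216712, 127063 and 97356 CPM. Fraction 1 stood above the trough in each gradient, at 53950, 49691 and 66835 CPM. In A the peak lay in the library that stands apart, in which Rps4x alone had 105703 CPM. Many ribosomal protein genes have processed copies that share reads, so single members are less certain than the class.

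Respiratory chain genes split by the genome that encodes them. The inner mitochondrial membrane holds complexes built from subunits of both origins, those of nuclear genes made by cytosolic ribosomes and imported, the others made by ribosomes inside the organelle. Of 77 nuclear genes tested, 34 were heavy in 3 of 3 gradients and 3 light, beside 12.5% and 27.5% of all genes tested. Of the 40 with at least 100 CPM, 24 were heavy and 2 light, beside 27.8% and 20.1% at that level. The medians of the 77 were 0.23, 0.72 and 0.75. An unadjusted p under 0.05 was reached by 4 on the heavy side and 1 on the light side, beside 3.57% and 11.6% of all genes tested. Uqcrc1, a core subunit of complex III, had differences of 2.31, 2.65 and 2.32, and Cox4i1, a subunit of complex IV, 1.13, 2.72 and 1.63. Ndufs1, the largest subunit of complex I, went the other way at -5.29, -3.64 and -4.14, or -4.19, -1.62 and -2.40 without fraction 1. Among the most abundant members, Cox8a had 0.17, 0.38 and -0.28 (0.88, 0.78 and 0.11 without fraction 1) and Uqcrq 0.14, 0.60 and 0.14.

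All 13 mitochondrially encoded protein transcripts were tested, and 12 were light in 3 of 3 gradients and none heavy, with medians of -0.63, -2.35 and -2.44. Of all genes tested, 27.5% were light in 3 of 3 gradients. An unadjusted p under 0.05 was reached by 7 of the 13 on the light side, beside 11.6% of all genes tested. None of the 13 was called by limma. COX1 had 5003, 3807 and 4569 CPM on the light side against 2377, 916 and 1336 on the heavy side. CYTB had 5857, 12236 and 10328 against 5317, 2311 and 2365, so that gradient A differed little. ND1 had 2700, 5231 and 4791 against 1747, 1064 and 819. Only ND2, at 0.18, -3.22 and -3.08, had mixed signs. Without fraction 6 of gradient A, 10 were light in 3 of 3, of which 9 were among the 12. COX1 held its highest level in fraction 1, and without that fraction its differences were -0.37, -1.80 and -1.46. Summed over the 13, the peak was in fraction 1 of A and fraction 2 of B and C, at 30649, 60869 and 64874.5 CPM.

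The secretory machinery, which targets new chains to the endoplasmic reticulum and processes them there, was mostly heavy in B and C. Of 28 genes tested, 12 were heavy in 3 of 3 gradients and 2 light, beside 12.5% and 27.5% of all genes tested, with medians of 0.02, 1.14 and 0.56. Without fraction 1, 8 were heavy and 3 light, with medians of -0.13, 1.17 and 0.69. Ssr2, a subunit of the translocon-associated complex, had 1240, 1039 and 896 CPM on the heavy side against 261, 375 and 458. Dad1, a subunit of the oligosaccharyltransferase, had 852, 873 and 925 against 480, 340 and 438. Srp72, of the signal recognition particle, was light at -2.38, -5.48 and -2.47, but at low levels. Without fraction 1, its light levels were 36.0, 36.3 and 14.7 CPM and its differences -2.69, -5.07 and -2.47.

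Proteasome genes were heavy in B and C, with medians of 1.04 and 0.91, and not in A, with a median of -0.49. Of 40 tested, 8 were heavy in 3 of 3 and 2 light, beside 12.5% and 27.5% of all genes tested. Of the 18 with at least 100 CPM, 4 were heavy and 1 light, below the 27.8% and 20.1% of all genes at that level. The heavy ones included Psmb3, with 974, 635 and 341 CPM against 217, 208 and 80.4, and Psmb6, with 1287, 929 and 497 against 390, 272 and 245, both subunits of the catalytic core. Translation initiation factors had 12 heavy and 10 light in 3 of 3 of 44 tested, beside 12.5% and 27.5% of all genes tested. Of the 20 with at least 100 CPM, 7 were heavy and 4 light, beside 27.8% and 20.1% at that level. Eif6, which keeps the subunits apart, had 2888, 5345 and 3799 CPM on the heavy side against 2266, 3433 and 3016. Eif1, which guards start codon choice, was on the light side with 1774, 2260 and 6298 against 940, 1281 and 1586. Among elongation and termination factors, 5 were heavy and 5 light of 16 tested, beside 12.5% and 27.5% of all genes tested. Of the 10 with at least 100 CPM, 2 were heavy and 4 light. The median of the 16 in A was -0.21, or 0.03 without fraction 6. Eef2, the translocase, had 1942, 1636 and 1608 CPM on the light side against 878, 1066 and 1364, and Tpt1, a growth-linked protein, 376, 401 and 856 against 151, 82.1 and 347.

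Several lists had medians of opposite sign in different gradients. The splicing factors had medians of -0.82, 0.76 and 0.17 and the mitochondrial ribosomal proteins -0.47, 0.64 and 0.35. Within the first list, Snrpb, a core protein of the spliceosome, had 720, 762 and 740 CPM on the heavy side against 150, 380 and 247. Histone and chromatin assembly genes had medians of -0.73, 0.41 and 0.27. Of 31 tested, 10 were heavy and 8 light in 3 of 3, beside 12.5% and 27.5% of all genes tested. H3f3b, which encodes the replication-independent histone H3.3, had 1262, 2181 and 3550 CPM against 917, 769 and 1588. The chaperones, in contrast, had light medians in all 3 gradients, at -0.24, -0.60 and -0.58, with 1 heavy and 10 light of 28. Dnajb1, a partner of the 70-kDa heat shock proteins, had 601, 442 and 546 CPM on the light side against 4.43, 200 and 336.

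Maternal gene lists lay on the light side. Of all genes tested, 27.5% were light in 3 of 3 gradients and 12.5% heavy. Of 16 tested genes of oocyte growth and the zona pellucida, the coat of the egg, 8 were light in 3 of 3 gradients and 1 heavy, with medians of -4.09, -1.72 and -1.17. Zp3, a zona protein and sperm ligand, had 710, 291 and 289 CPM on the light side against 19.1, 35.0 and 125. Cd9, the egg tetraspanin needed for sperm fusion, was the heavy one, with 476, 171 and 509 CPM against 119, 56.6 and 126. Of 21 tested genes of the subcortical maternal complex and other maternal effect genes, 11 were light and 4 heavy, with medians of -1.69, -1.55 and -1.10. At 100 CPM or more, 3 of 4 in the first list were light and 1 heavy, and 5 of 10 in the second light and 2 heavy. All genes at that level had 20.1% light and 27.8% heavy. Padi6, an egg arginine deiminase, had 1353, 493 and 598 CPM on the light side against 221, 271 and 322. Dppa3, which protects the maternal genome from demethylation, had 2817, 1866 and 4149 CPM on the heavy side against 1285, 1045 and 2429, and its sides overlapped. Dnmt1, the maintenance DNA methyltransferase, was light at -5.97, -2.99 and -1.32.

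Genes of mRNA storage and decay, which keep maternal transcripts silent or remove them, had 20 light and 2 heavy of 47, with medians of -1.61, -1.28 and -1.24. Only 7 of these had at least 100 CPM, with medians of 1.66, -2.04 and -0.25, so that the sign differed in A only. Without fraction 6 of gradient A, 19 of the 47 were light and 1 heavy. Ybx1, a Y-box RNA-binding protein, had 345, 673 and 897 CPM on the light side against 205, 153 and 189. Adhesion, polarity and cytoskeleton genes had 20 light and 6 heavy of 48, beside 27.5% and 12.5% of all genes tested. Of the 13 with at least 100 CPM, 5 were light and 4 heavy, beside 20.1% and 27.8% at that level. Among them Tubg1, the gamma tubulin of spindle poles, had 1140, 1401 and 1003 CPM on the light side against 451, 563 and 615, and Pfn1, the actin-binding profilin, was heavy with 714, 1619 and 1026 against 355, 453 and 437.

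Regulators of genome activation had 11 light and 5 heavy of 32, and lineage regulators 3 and 3 of 27. Klf17 had 716, 519 and 680 CPM on the light side against 142, 137 and 437. Wwtr1, the Hippo pathway coactivator TAZ, had 908, 864 and 1143 on the light side against 7.61, 393 and 557. Pou5f1 had 217, 229 and 356 CPM on the heavy side against 168, 146 and 232. Of the 15 tested genes of the 2-cell wave, 3 were light and none heavy. DNA replication had 14 light and 4 heavy of 45, the cell cycle list 11 and 5 of 48, nucleolar ribosome assembly 11 and 8 of 48, and glycolysis 6 and 3 of 19 (6 and 5 without fraction 6 of gradient A). Of all genes tested, 27.5% were light and 12.5% heavy. The light shares of the lineage, 2-cell wave, cell cycle and nucleolar lists were below that.

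The rest of the lists were small or mixed. Cholesterol synthesis had 6 light and 3 heavy of 21. The one-carbon and amino acid list had 4 and 1 of 16, the aminoacyl-tRNA synthetases 6 and 4 of 21, and the noncoding RNAs 6 and 3 of 27. All these light counts lie near the 27.5% of all genes tested. The 18S ribosomal RNA Rn18s had 88008, 31317 and 23425 CPM on the heavy side and 69912, 64969 and 25752 on the light side. Rn7sk, the RNA that restrains the elongation factor P-TEFb, had 401, 259 and 281 on the light side against 66.7, 125 and 41.2, and without fraction 1 its light levels were 168, 134 and 96.0.

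**Figure D4:**
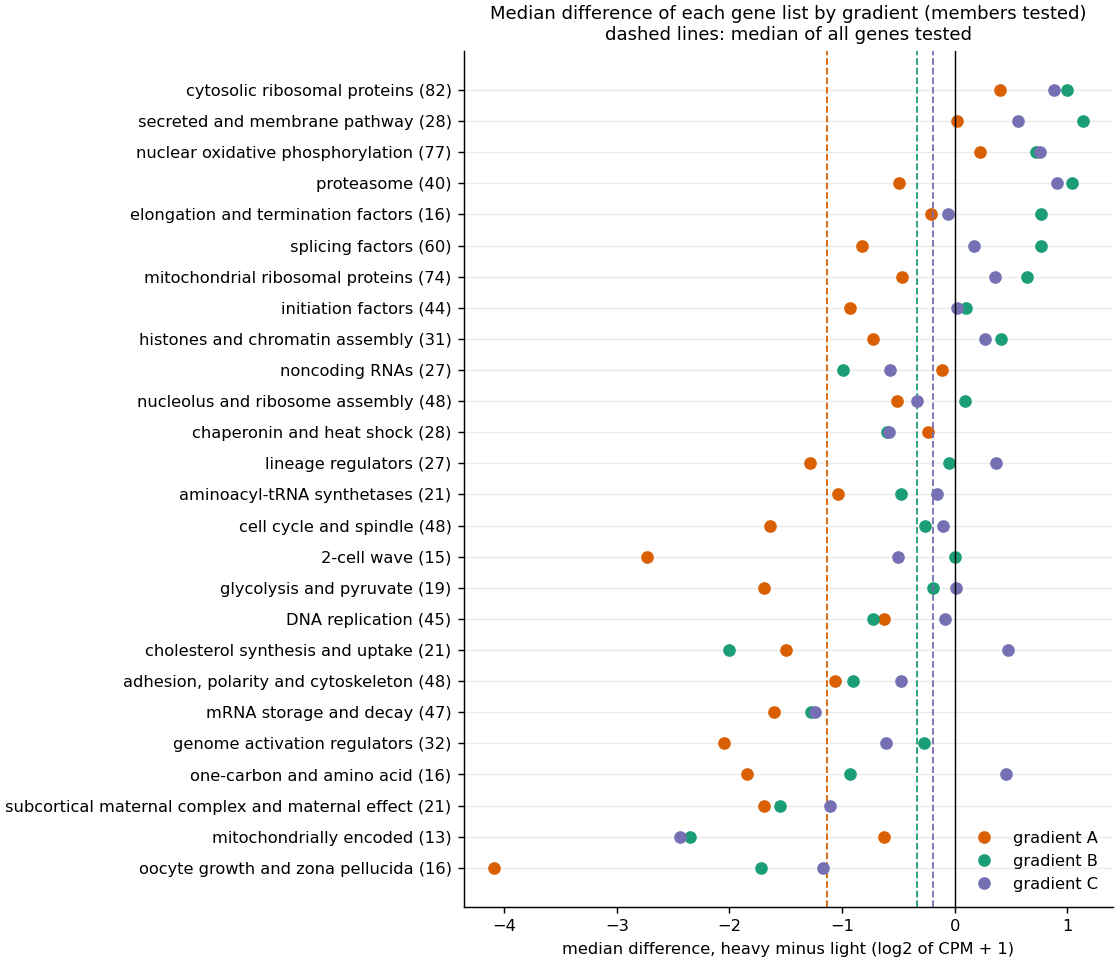
Median heavy minus light difference (horizontal axis, log2 of CPM + 1) of the tested members of 26 gene lists, with their number in brackets, 1 dot per 4-cell gradient, and dashed lines at the median of all 8575 genes tested in that gradient. Ribosomal protein and nuclear respiratory genes have all 3 dots above 0, and the mitochondrially encoded and maternal lists have all 3 below.

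Longer reading frames lay lighter. A coding length from GENCODE vM21 was found for 1703 of the 1764 genes of at least 100 CPM (96.5%). The 311 genes with a coding length under 0.5 kb had median differences of 0.23, 0.71 and 0.46 in A, B and C, and the 183 genes of 2 to 4 kb had -0.80, -0.70 and -0.45. Of the shortest group, 46.3% were heavy in 3 of 3 gradients and 10.3% light. Of the genes of 2 to 4 kb, 15 were heavy and 55 light (30.1%). Without the ribosomal protein and respiratory chain genes, the 242 genes left under 0.5 kb had medians of 0.16, 0.65 and 0.40. The 46 genes over 4 kb had -0.61, -1.12 and -0.84, but in gradient A this value was 0.33 once fraction 1 was left out. Across genes, which are not independent and share libraries, Spearman rho of the difference with coding length was -0.14, -0.28 and -0.19, and with 3′ untranslated length -0.05, -0.13 and -0.08. Fth1 and Ftl1, with coding lengths of 546 and 549 bases, were light although short.

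Position in the gradient also went with the history of a transcript. In the transcriptome pools, which are separate libraries from the gradients, 1126 of the 1764 genes were higher by at least 2 (log2) in 4-cell embryos than in MII oocytes, and 123 were lower by at least 2. This split was chosen after the data were seen and is given without a test. The 123 genes that had declined had median differences of -0.99, -0.86 and -0.51, with 40.7% light in 3 of 3 gradients and 11.4% heavy. The 1126 that were higher than in MII oocytes had 0.01, 0.42 and 0.37, with 16.5% light and 32.1% heavy. These need not be new transcripts: Chchd2 had 736 CPM in GV pools, 9.74 in MII pools and 2153 in 4-cell pools. Of the 12 named heavy genes, 11 belonged to the higher set and none to the declining one, and of the 12 named light genes 4 and 3 did. Ldhb, for example, had a mean of 7160 CPM in the MII pools and 39.5 in the 4-cell pools, yet its mean over the 4-cell side means was 1820. Fth1 had 9.44 CPM in MII pools and 2038 in 4-cell pools. Coding length and history were not separated from each other.

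**Figure D5:**
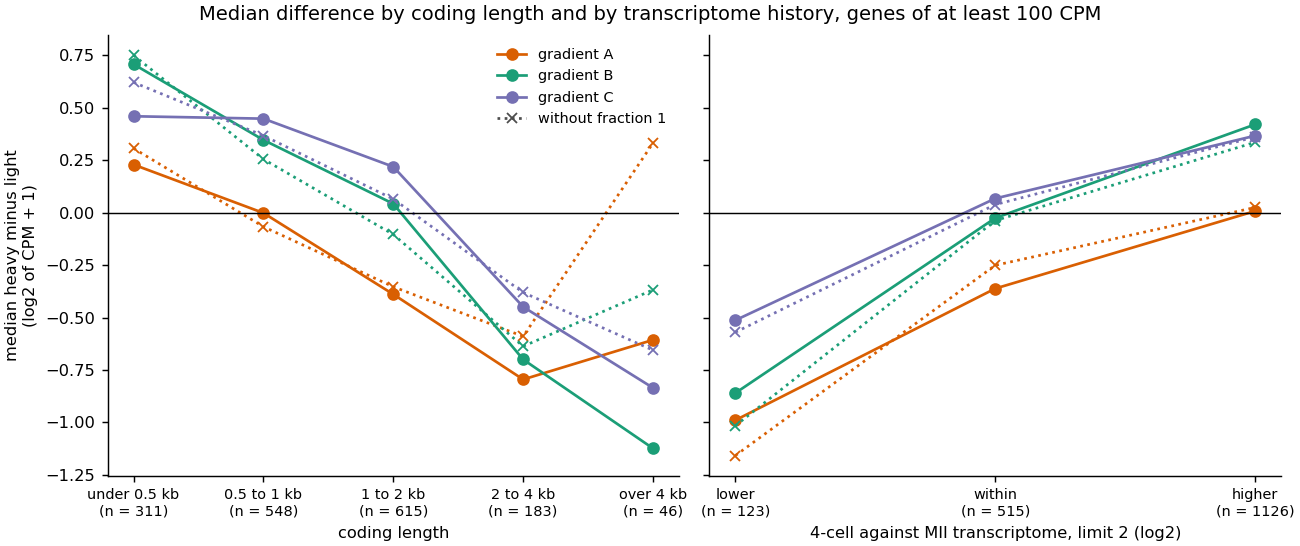
Median heavy minus light difference (vertical axis, log2 of CPM + 1) of genes with at least 100 CPM, by coding length (left) and by the difference between 4-cell and MII transcriptomes (right), 1 line per 4-cell gradient, with crosses for the same medians without fraction 1. Medians decline with coding length up to 4 kb and climb from declining genes to those higher than in MII oocytes in all 3 gradients.

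The second question was whether a transcript's position at the 4-cell stage differed from that in 2-cell embryos. Of 11572 genes tested by limma on the differences of 3 against 3 gradients, none was called (0.0%), with a smallest adjusted p of 0.0933, and 1476 had an unadjusted p under 0.05 (12.8%). Zbed3 had the smallest p: its 2-cell differences were 0.28, 0.30 and 0.38 and its 4-cell ones -1.65, -1.87 and -1.39, with a mean of 23173 CPM in the 2-cell gradients and 739 in the 4-cell ones. Omt2b, an egg protein, had 1.72, 2.00 and 1.59 in 2-cell gradients and -0.79, -0.34 and -0.07 in 4-cell ones. Tubb3, a beta tubulin, was near balance at the 2-cell stage and at -6.25, -5.58 and -6.51 at the 4-cell stage, where its heavy side held at most 2.51 CPM. In the other direction, Psmf1, a proteasome inhibitor, went from -1.47, -2.04 and -1.43 to 5.03, 5.05 and 2.58, and Rpl41 from -0.04, 0.05 and 0.23 to 1.36, 1.5 and 1.08. Psmf1 had a mean of 57.6 CPM in the 4-cell gradients and 636 in the 2-cell ones. Without fraction 1, its 4-cell light levels were 0.111, 0.614 and 30.9 CPM. The genes named in this comparison did not pass adjustment.

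Ferritin and ubiquitin transcripts had light values at both stages. Ubb had differences of -1.90, -1.44 and -1.65 in 2-cell gradients. Fth1 had differences of -1.91, -1.91 and -1.61 in 2-cell gradients, and the change to the 4-cell stage was -0.54 (SE 0.27, limma adjusted p = 0.463). Among lists, the storage and decay genes had 2-cell medians of 0.38, 0.69 and 0.10 against the 4-cell -1.61, -1.28 and -1.24, and the subcortical maternal list 0.38, 0.30 and 0.25 against -1.69, -1.55 and -1.10. Nuclear respiratory genes had -0.39, -0.32 and -0.15 at the 2-cell stage. Over all genes tested at the 4-cell stage the 2-cell medians were -0.03, -0.05 and -0.02. The change of a list between stages was not tested.

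The third question was the same for 8-cell embryos. Of 10417 genes tested, none was called (0.0%), with a smallest limma adjusted p of 0.647, and 764 had an unadjusted p under 0.05 (7.33%). Among genes with a mean of at least 100 CPM at either stage, Cd63 had the smallest p. Its differences were -0.29, 0.19 and 0.48 in 8-cell gradients against 1.19, 1.54 and 1.72. Rplp1 had -0.99, -1.34 and -1.10 against -0.11, 0.28 and -0.34. Ftl1 had -3.02, -3.48 and -2.73 at the 8-cell stage, and Fth1 -4.08, -3.65 and -3.14 (4-cell minus 8-cell 1.27, SE 0.26, adjusted p = 0.647). On the other side were H13, a signal peptide peptidase, at -0.66, -1.21 and 1.88 against -7.36, -7.28 and -4.68, Hnrnpa1, a splicing regulator, at 2.55, 2.48 and 2.11 against -1.63, 0.40 and 0.07, and Arf3, a small GTPase of the Golgi, at 2.63, 0.55 and 2.65 against -3.86, -3.67 and -0.48. At the 4-cell stage, H13 and Arf3 had means of only 82.4 and 96.0 CPM. The heavy level of H13 in A was 0.439 CPM without fraction 6. The 8-cell medians of the ribosomal protein list were 0.41, 0.49 and 0.30, and those of the mitochondrially encoded list -2.24, -2.04 and -2.42. Both comparisons share the 4-cell gradients, so their results are not independent of each other.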

How the data were processed

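The authors deposited 1 table of CPM values for 15854 gene symbols in 272 libraries. Per the submitters' processing notes, the tools were Trim Galore 0.6.7, FastQC, HISAT2 2.2.1, featureCounts 2.0.1 and edgeR with the build GRCm39, and the annotation is not given in the sources used here. After 1 symbol was kept of each of the 76 groups with identical values, 15771 remained. As deposited, 38 columns summed above the CPM total, and the authors' values in 9 of these were recorded as a signal; the authors scaled them as the rest, and all 272 were used as CPM. All values were whole multiples of 1 read (100%), which gave the depths. The limit was 0.05 reads, or wider in proportion to the count for the highest values. No pair of same-numbered fractions agreed within sampling noise (chi-square per degree of freedom at least 20.1 over 30 pairs), so each library counted once. Amplified reads carry no molecular identifiers, so counts cover counting error only.

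The members and gene lists were chosen with earlier results of these data known. For each gradient, mean CPM of fractions 6 to 10 and 1 to 5 was log2-transformed with a pseudocount of 1, so low genes appear less changed than they are. Entry required at least 1 CPM in 3 of 6 side means. limma 3.58.1 (R 4.3.3) with a trend used the gradient letter as a block, because both sides of a letter are fractions of 1 gradient, and called genes at an adjusted p under 0.05 and a difference of at least 1. Stages were compared by limma on the 3 differences of each. The test was also run on simulated reads, which held no effect of the gradient and no library like fraction 6 of gradient A. No result here rests on that run. Named genes are the 12 heavy and 12 light with the smallest p among those of at least 100 CPM with 3 equal signs, the 3 most abundant of each list, and the 3 with the smallest p in each direction per stage comparison; other genes were named after their values were seen. Alternatives covered the block, pseudocount, filter, division of fractions, summing, normalization, edgeR 4.0.16, DESeq2 1.42.0, a fit over all stages and each gradient left out. Results for some list members and motif matches are not reported here.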

Additional observations from a re-analysis of the deposited data

Results flagged for a closer look

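In the 4-cell transcriptome pools, the levels of 24 named genes were examined for a pool that lies far from the other 3, by Dixon's test at the 95% level, which chance passes in about 1 of 20 groups. This marked 3 genes. Alppl2 had 1024 CPM in the lowest pool and 1164 to 1175 in the others. Chchd2 had 2279 CPM in the highest pool and 2098 to 2125 in the others. Ubb had 587 CPM in the lowest pool and 783 to 810 in the others. These pools enter no comparison of the gradient sides.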

How the results depend on the processing

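The number of genes called between the sides, 2 in the chosen design, depended strongly on the processing. It was 0 without the replicate block (1276 genes at an unadjusted p under 0.05), with no filter (1035) and with the mean of logs (1506), and 5 with edgeR, 6 and 9 with fractions 7 to 10 against 1 to 4 and 8 to 10 against 1 to 3, 7 without fraction 6 of gradient A and 19 when only genes of at least 100 CPM were tested. DESeq2 called 1137 (375 heavier, 762 lighter) and a fit over all stages, which shares 1 spread over all stages, 2690 (621 heavier, 2069 lighter). Quantile normalization, which moved the median difference of all genes from -0.69 to 0.01, called 9 genes, all lighter. With 1 gradient left out it was 0 to 3 (0 without A, with 1295 genes at an unadjusted p under 0.05). The stage comparisons called 0 genes under the replicate block and with any gradient left out, and 2254 (2-cell) and 606 (8-cell) in the fit over all stages. List medians stayed heavy in 20 of 20 settings for ribosomal proteins, nuclear respiratory genes, the secretory list and the proteasome. The lowest proteasome median was 0.025. Medians stayed light under all settings run for the mitochondrially encoded list and the lists of oocyte growth and the subcortical maternal complex. The same held for the 2-cell wave, DNA replication, adhesion, cell cycle, chaperone, cholesterol, genome activation and glycolysis lists. The median of all genes tested was itself -0.69 in the chosen design. Elongation, initiation, histone, splicing, mitochondrial ribosomal, nucleolar, lineage and one-carbon medians took either sign. The synthetase median turned heavy with DESeq2 (0.36), edgeR (0.50), the 100 CPM filter (1.25), quantile normalization (0.54) and without gradient A (0.38; -0.80 to 0.38 with 1 gradient left out). The storage and decay median was 0.049 at 100 CPM. The noncoding median turned heavy with DESeq2 (0.51), edgeR (0.45), fraction 1 left out (0.29), the 100 CPM filter (0.21), quantile normalization (0.17), summed reads (0.23) and without gradient C (0.082; -0.59 to 0.082 with 1 gradient left out). The cause of these changes was not tested. The shallow fractions 1, at 0.141 M to 0.347 M reads, limit what low genes on the light side can show.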
